A study of Mus musculus with 2 samples.

Results

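Mitochondrially encoded genes are the genes carried by the small circular genome inside mitochondria. They were chosen as the rows whose position lies on chromosome MT, with no minimum level, and 28 of the 19202 genes of the table met that rule: 12 mRNA, 2 rRNA and 14 tRNA genes. The annotation used for symbols, GENCODE M21, lists 37 genes there. The other 9, mt-Nd4l and the tRNA genes mt-Tf, mt-Tv, mt-Tw, mt-Td, mt-Tk, mt-Tr, mt-Th and mt-Tt, have no row and were not analysed here. No row of the table had fewer than 2 counts over both columns.

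The samples were telencephalic tissue of C57BL/6 mouse embryos at embryonic day 12, although the extraction protocol names cerebral cortex. The genotypes were H2AZcKO, a conditional knockout called the knockout here and H2AZ cKO in the plots, and H2AZfl/fl, called the control, in which the allele flanked by loxP sites had not been deleted. The histone variant H2A.Z is encoded by H2afz, whose counts serve as the check of the deletion. No source used here gives the Cre driver, and so which cells carry the deletion. The table held 1 column of RNA-seq read counts per genotype, and the column headed WT was taken as the control. No difference has a replicate check, and no test of the genotype was made.

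The mitochondrial genome is transcribed from both strands into long precursors. The heavy-strand transcript, written on the plus strand of the reference, holds both rRNAs, most mRNAs and most tRNAs. The light-strand transcript, on the minus strand, holds the mRNA mt-Nd6 and the remaining tRNAs. The tRNAs lie between the other genes, and cutting them out releases the mRNAs and rRNAs, most of which then receive a short poly(A) tail. The proteins made are core subunits of complexes I, III and IV of the respiratory chain and of ATP synthase, whose other subunits are encoded in the nucleus.

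Library totals were 8839840 counts for the knockout and 8891198 for the control. Levels are in CPM, the usual depth-normalised count, after TMM scaling. A ratio always divides the knockout by the control, and the parentheses give its exact 95% Clopper-Pearson interval, which reflects counting error alone. The targeted gene H2afz had 1664 counts in the knockout and 2605 in the control, a ratio of 0.661 (0.621 to 0.703), and Setd2, which the series title names, was at 0.894 (0.826 to 0.968). All 11 telencephalic markers listed were detected in both libraries, 9 of them above 0 on the log2 scale and 6 with an interval above 1. Over all genes with at least 1 CPM in either library these shares were 51% and 12.6%, and at 100 CPM or more 61.4% and 32.4%. Markers of the ventral telencephalon stood higher in the knockout, Nkx2-1 at 1.58 (1.45 to 1.73), Gsx2 at 1.43 (1.14 to 1.79), Dlx1 at 1.26 (1.21 to 1.31) and Dlx2 at 1.21 (1.14 to 1.28), while the dorsal markers Pax6 and Eomes were at 0.972 (0.898 to 1.05) and 0.982 (0.931 to 1.04) and Emx1 at 1.15 (1.06 to 1.25). Erythroid markers summed to 695 CPM in the knockout and 368 CPM in the control. Of 9 tested genes 7 were at least 1.5-fold higher, against 4.4% of all genes at 1 CPM. Macrophage markers summed to 50.7 CPM and 36.0 CPM, and endothelial markers to 116 CPM and 123 CPM. In these 2 lists 6 of 11 and 0 of 7 tested genes were at least 1.5-fold higher. No marker of these 3 lists was at 0. Xist stood at 732 CPM against 22.2 CPM, while the Y-linked Kdm5d had 5 counts against 647, so the libraries differ in sex-linked transcripts as well as in genotype. The part of these differences in the results below was not tested, and sex and genotype cannot be told apart.

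Mitochondrially encoded genes took a larger share of the knockout library. They held 266165 counts, or 3.01% (3.0 to 3.02), in the knockout and 234824 counts, or 2.64% (2.63 to 2.65), in the control. After scaling the summed ratio was 1.17 (1.17 to 1.18). In bulk tissue a difference in the number of cells and a difference in RNA per cell cannot be told apart. Of the 28 genes 26 stood above 0 on the log2 scale, against 51% of the 14586 genes with at least 1 CPM in either library. At 100 CPM or more the share of all genes was 61.4%. The 28 were taken with no floor and include genes with few counts, so these sets are not alike. The counting interval lay wholly above 1 for 16 members and wholly below 1 for 0. Over all genes at 1 CPM these shares were 12.6% and 11.2%. The interval narrows with depth, and among the 2682 genes at 100 CPM or more it lay above 1 for 32.4% and below 1 for 16.7%. All 10 members at that level had an interval above 1. The median log2 ratio of the members was 0.26 on the log2(CPM + 1) scale, where that of all genes at 1 CPM was 0.00603 and that of genes at 100 CPM was 0.04. Abundant nuclear genes were also above the control: the 54 at 1000 CPM or more had a median log2 ratio of 0.13 and a range from -0.24 to 0.45, beside 0.22 and a range from 0.09 to 0.55 for the 8 members at that level.

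The members did not move by one common factor. Members at least 1.2-fold higher numbered 19 of 28 and lower 1, where all genes at 1 CPM gave 13.6% and 15.5%. With that floor the members gave 14 of 22 and 0. Those at least 1.5-fold higher numbered 11 of 28, against 4.4% of all genes at 1 CPM, and 1 was at least 1.5-fold lower, against 5.86%. At 1 CPM or more the counts were 7 of 22 and 0, and 3 of these members, mt-Ta, mt-Tn and mt-Tm, passed that level in the knockout alone. Past 2-fold there were 6 higher and 1 lower, against 1.62% and 2.33%, and all 6 were tRNAs with at most 39 counts in a library. Among the members at 1 CPM or more, the like set, 3 of 22 were 2-fold higher and 0 lower. Of the 10 members at 100 CPM or more 5 were at least 1.2-fold higher (4.88% of genes at that level) and 0 lower (2.42%). Of these mt-Rnr2 alone passed 1.5-fold at 1.54, a call lost at 1.496 under scaling by total count, which leaves 10 of the 28 members past 1.5-fold. At this level 1.5-fold was passed by 0.224% of genes, among them Xist and the globins Hbb-y and Hbb-bs. No member at that level was 1.5-fold lower or 2-fold higher (0.0373% of genes for each). Of these 10 members mt-Cytb lay nearest to the control at 1.07, mt-Atp8, mt-Nd4, mt-Nd2, mt-Co1 and mt-Nd1 between 1.11 and 1.21, and mt-Rnr1, mt-Nd5, mt-Nd6 and mt-Rnr2 between 1.37 and 1.54. For the 10 mRNA and rRNA genes with 1000 or more control counts, the log2 ratio was set against the control level per kilobase. The Pearson r was -0.79, with the level on the log2 scale, and the Spearman rho -0.82. Both are given as a description, since these genes share precursors and libraries. The control count also enters both values, which by itself pulls the correlation below 0.

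**Figure D1:**
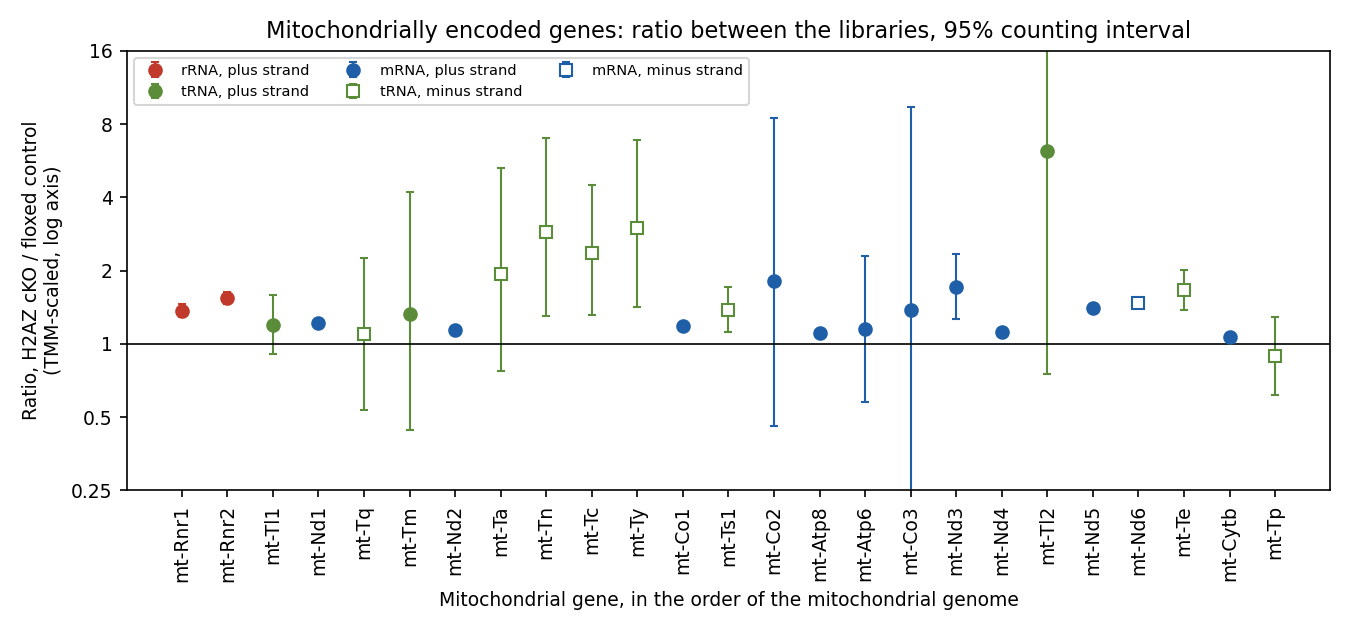
Ratio of knockout to control (vertical log axis) for the 25 members with more than 3 counts in either library, in genome order, with bars for the 95% counting interval; bars of mt-Co3 and mt-Tl2 run off the axis. Filled circles are plus-strand and open squares minus-strand genes; mt-Cytb at 1.07 lies near 1, while mt-Nd5, mt-Nd6, both rRNAs and the minus-strand tRNAs from mt-Ta to mt-Ty lie higher.

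Complex I, the NADH dehydrogenase that feeds electrons into the chain, is represented by mt-Nd1 to mt-Nd6 without mt-Nd4l. Its 6 mRNAs summed to 128909 counts in the knockout and 109036 in the control, a ratio of 1.22 (1.21 to 1.23). mt-Nd1 (ENSMUSG00000064341, chromosome MT at 2751 to 3707, plus strand) had 50195 counts against 42784, a ratio of 1.21 (1.2 to 1.23). mt-Nd2 (3914 to 4951) had 23148 against 21001, a ratio of 1.14 (1.12 to 1.16). These and mt-Nd4 (10167 to 11544), at 25337 against 23387 and 1.12 (1.10 to 1.14), stood close to the summed ratio of all members.

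mt-Nd5, a proton-pumping subunit and the last plus-strand gene before mt-Cytb, stood apart from them. mt-Nd5 (ENSMUSG00000064367, 11742 to 13565) had 18001 counts in the knockout and 13267 in the control, a ratio of 1.40 (1.37 to 1.44). The log2 ratio of mt-Nd5 was 0.49. mt-Nd3 (9459 to 9806) had 116 counts against 70, a ratio of 1.71 (1.26 to 2.34). Without mt-Nd5 the plus-strand complex I mRNAs had a summed ratio of 1.17 (1.16 to 1.18).

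Complexes III and IV lie further down the chain. mt-Cytb (ENSMUSG00000064370, 14145 to 15288), the cytochrome b of complex III, was the gene with the most counts of the whole table in both libraries, at 63586 and 61621, and its ratio of 1.07 (1.06 to 1.08) was the lowest of the 10 abundant members. mt-Co1 (5328 to 6872), the catalytic subunit of complex IV, had 52662 counts against 46057, a ratio of 1.18 (1.17 to 1.2). The other 2 complex IV mRNAs were almost without reads. mt-Co2 (7013 to 7696) had 7 and 4 counts and mt-Co3 (8607 to 9390) had 4 and 3, with ratios of 1.81 (0.460 to 8.43) and 1.38 (0.233 to 9.42) that leave the direction undetermined.

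The read counts of the ATP synthase genes showed the same contrast. mt-Atp8 (7766 to 7969) had 14540 counts against 13516, a ratio of 1.11 (1.09 to 1.14), and the highest level per length of all members in both libraries, 8177 and 7347 CPM per kilobase. mt-Atp6 (7927 to 8607), whose reading frame overlaps that of mt-Atp8 by 43 bases, had 20 counts against 18, a ratio of 1.15 (0.577 to 2.30). Per kilobase mt-Atp6 stood at 3.37 CPM and 2.93 CPM. This level is uncertain, because nearly all of its sequence is repeated in nuclear transcripts as described below. The difference in counts is thus not read as a difference in RNA between mt-Atp8 and mt-Atp6.

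**Figure D2:**
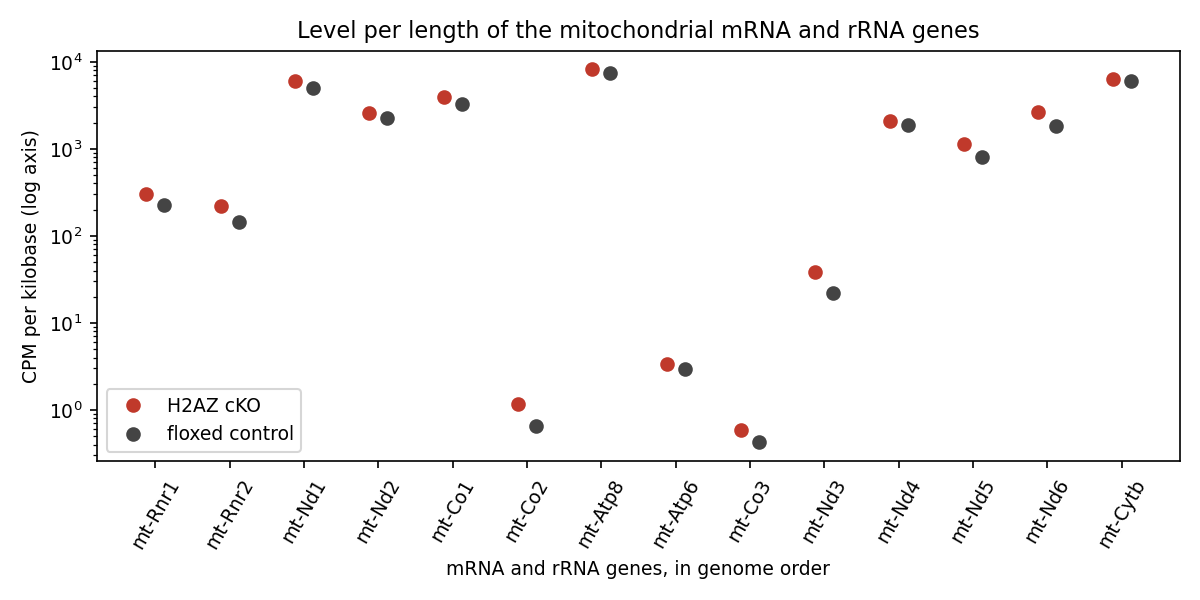
Level in CPM per kilobase (log axis) of the 12 mRNA and 2 rRNA genes in genome order, 1 point per library. mt-Co2, mt-Atp6, mt-Co3 and mt-Nd3 lie at or under 38.2 CPM per kilobase in both libraries, and the other mRNAs at 807 or more.

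The 4 sparse mRNAs were those with nearly all of their sequence repeated, base for base, in nuclear transcripts. Such copies are stretches of mitochondrial DNA that were inserted into a chromosome. Each member transcript was cut into all its 50-base windows and these were looked up, on both strands, in the GENCODE M21 transcripts of nuclear genes. Of the windows of mt-Co2 100% were found there, of mt-Co3 99.9%, of mt-Atp6 99.5% and of mt-Nd3 98.0%. Most of these windows lie in a row of pseudogenes on the minus strand of chromosome 1 (GRCm38). There Gm28661 (24614885 to 24615565) matched 681 bases of mt-Co2 with 0 mismatches, Gm10925 (24613974 to 24614651) 678 bases of mt-Atp6 with 0, Gm28437 (24613189 to 24613971) 783 bases of mt-Co3 with 0, and Gm28438 (24612775 to 24613119) 345 bases of mt-Nd3 with 1. mt-Co1, an abundant mRNA, also has a full-length copy, but Gm13340 on chromosome 2 differs from it at 37 of 1545 bases. mt-Nd4l, which has no row, shared 98.8% of its windows with Gm10222 on the same stretch.

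A part of mt-Co2 and of mt-Nd3 beside their copies shows stretches in which little separates them. Bases are numbered from 1 at the 5′ end of the mitochondrial gene, the sequences are from GENCODE M21 on GRCm38, and capitals mark a position at which the copies printed differ. In bases 301 to 420 of mt-Co2 the chromosome 1 copy is identical and Gm13341, on chromosome 2, has the substitution G405A. Gm13341 has 672 bases where mt-Co2 has 684. Aligned without gaps Gm13341 differs at 173 of 672 bases, a count that any insertion or deletion raises. Its likeness over the whole gene was therefore not measured.
mt-Co2: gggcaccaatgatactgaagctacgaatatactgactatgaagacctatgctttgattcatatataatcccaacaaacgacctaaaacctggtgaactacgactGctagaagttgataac
Gm28661: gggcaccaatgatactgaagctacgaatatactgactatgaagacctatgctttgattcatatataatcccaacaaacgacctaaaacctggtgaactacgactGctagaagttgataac
Gm13341: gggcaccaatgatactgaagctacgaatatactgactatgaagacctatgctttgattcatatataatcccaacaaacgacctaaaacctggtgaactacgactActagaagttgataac
In bases 1 to 60 of mt-Nd3 the only difference is T3C, in the start codon.
mt-Nd3: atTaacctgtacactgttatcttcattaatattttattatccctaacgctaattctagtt
Gm28438: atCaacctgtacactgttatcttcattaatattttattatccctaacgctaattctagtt

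The mRNA and rRNA genes that share few windows had more reads than these 4, whereas the tRNA genes shared 0% and were sparse as well. mt-Cytb, mt-Nd1, mt-Nd6, mt-Atp8 and mt-Rnr1 shared 0% of their windows, mt-Rnr2 1.04%, mt-Nd5 7.61% and mt-Nd2 8.19%. mt-Co1 and mt-Nd4 lay between, at 51.1% and 62.2%. Together the 4 mRNAs with at least 90% of windows shared held 147 and 95 counts, and the other 10 mRNA and rRNA genes 265206 and 234156. The level was also taken per 1000 windows that no nuclear transcript shares. mt-Nd4 then came to 5791 CPM in the knockout and 5166 CPM in the control, and mt-Co1 to 8265 and 6987. The mRNAs that share few windows spread widely by this measure. mt-Atp8 stood at 10762 and 9670, mt-Cytb at 6662 and 6241 and mt-Nd1 at 6342 and 5225. Lower values were those of mt-Nd6 at 2957 and 2012, mt-Nd2 at 2925 and 2565 and mt-Nd5 at 1259 and 897. By the same measure mt-Nd3, with 6 unshared windows, stood at 2218 CPM and 1294 CPM, whereas mt-Atp6 and mt-Co3, with 3 and 1, stood at 765 and 665 CPM and at 459 and 333 CPM.

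The copies held few reads as well. Over the 10 nuclear genes of the table that share windows with a member, the counts summed to 129 in the knockout and 120 in the control, most of them on Gm13340, the chromosome 2 copy of mt-Co1, with 71 and 75. No source used here says what became of reads that match in several places, and the part of that step in the low counts was not tested. The levels of mt-Co2, mt-Co3, mt-Atp6 and mt-Nd3 are uncertain for that reason, and those of mt-Co1 and mt-Nd4 to a lesser extent. The windows were compared with annotated transcripts and not with the whole genome. The 233 bases of chromosome 1 between Gm10925 and Gm28661, whose mitochondrial counterpart of 230 bases holds most of mt-Atp8, were not compared.

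**Figure D3:**
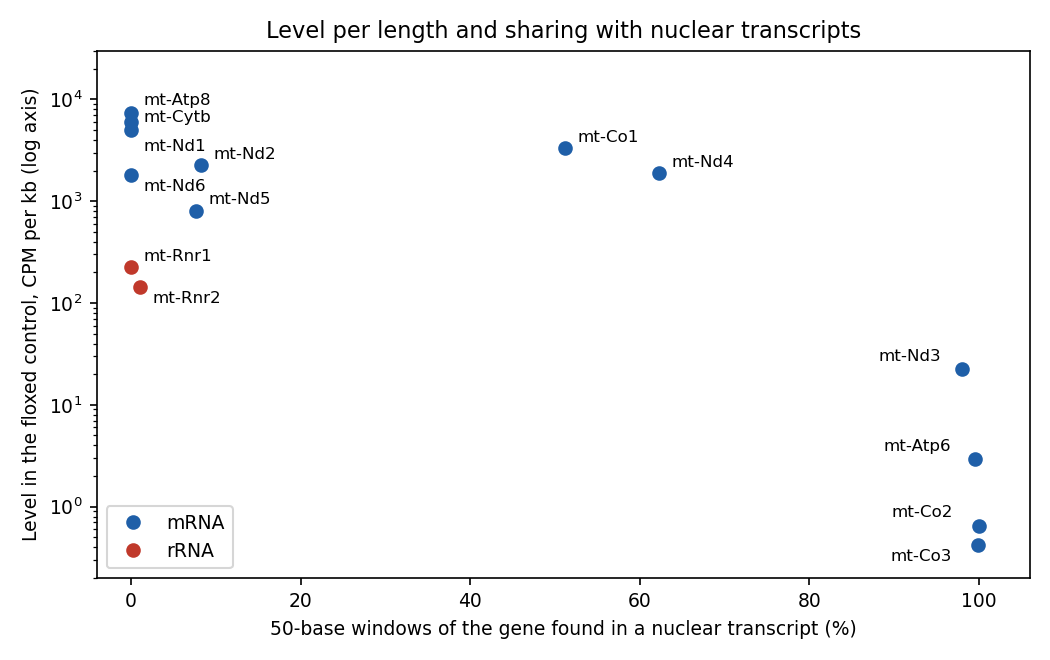
Level in the control (CPM per kilobase, log axis) against the percent of 50-base windows found in a nuclear transcript, 1 point per mRNA or rRNA gene. The 4 genes at 98% or more lie at or under 22.3 CPM per kilobase, and mt-Co1 and mt-Nd4, at 51.1% and 62.2%, lie among the abundant mRNAs.

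The rRNA genes encode the RNAs of the mitochondrial ribosome. mt-Rnr1 (70 to 1024), the 12S rRNA, had 2553 counts against 1930, a ratio of 1.37 (1.29 to 1.45). mt-Rnr2 (1094 to 2675), the 16S rRNA, had 3072 against 2066, a ratio of 1.54 (1.45 to 1.63). Among the 2682 genes at 100 CPM or more, ordered from the highest ratio, mt-Rnr2 was number 6, mt-Nd6 number 8, mt-Nd5 number 15 and mt-Rnr1 number 16, while mt-Cytb was number 907. Per kilobase the rRNAs stood at 307 and 223 CPM in the knockout and at 224 and 145 CPM in the control, below every abundant mRNA. The kit named in the labels selects polyadenylated RNA in its standard protocol, so these values are not the amount of rRNA in the cell. Against the plus-strand mRNAs of the same library, which removes the scaling between libraries, the rRNAs were 1.26 times (1.21 to 1.31) as abundant in the knockout as in the control, with the mRNA counts taken as exact in this interval and the next of its kind.

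The genes annotated on the plus strand and on the minus strand had different summed ratios. The 19 plus-strand members summed to 253377 counts against 225837, a ratio of 1.16 (1.15 to 1.17), and the 9 minus-strand members to 12788 against 8987, a ratio of 1.47 (1.43 to 1.51). The minus-strand sum is almost all mt-Nd6, the complex I subunit (ENSMUSG00000064368, 13552 to 14070), with 12112 counts in the knockout and 8527 in the control and a ratio of 1.47 (1.43 to 1.51). Relative to the plus-strand mRNAs within each library mt-Nd6 was 1.27 times (1.24 to 1.31) as abundant in the knockout. mt-Nd5 ends 14 bases inside mt-Nd6 on the opposite strand, and mt-Te adjoins mt-Nd6 on the other side. These 3 neighbours, at 1.40, 1.47 and 1.66, all stood above the plus-strand sum, and mt-Cytb, the next gene, stood below it. The kit does not mark strand in its standard form and the counting is not stated to use it. Reads of mt-Nd6 or another minus-strand member and reads of any plus-strand RNA across the same bases therefore cannot be told apart. The sums compare sets of annotated genes and not the transcripts of each strand.

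Of 22 annotated tRNA genes 14 had a row, 6 of the 14 on the plus strand and all 8 on the minus strand. They held few reads, 812 in the knockout and 573 in the control, a summed ratio of 1.47 (1.32 to 1.63). A mature tRNA is too short for most RNA-seq libraries and has no poly(A) tail, and which RNAs these reads came from was not tested. The plus-strand tRNAs summed to 136 counts against 113, a ratio of 1.25 (0.963 to 1.61), and the minus-strand tRNAs to 676 against 460, a ratio of 1.52 (1.35 to 1.72). Within each library the minus-strand tRNA genes held 4.97 times the counts of the plus-strand tRNA genes in the knockout and 4.07 times in the control. The plus-strand sums are mostly mt-Tl1, with 116 and 100 counts. Only 6 of 14 annotated plus-strand tRNA genes have a row. Whether the 4.97 and 4.07 differ was not tested.

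The minus-strand tRNAs for alanine, asparagine, cysteine and tyrosine follow each other between mt-Nd2 and mt-Co1. This cluster surrounds the usual start of light-strand DNA replication. mt-Ta (5018 to 5086) had 15 counts in the knockout and 8 in the control, mt-Tn (5089 to 5159) 25 and 9, mt-Tc (5192 to 5257) 39 and 17, and mt-Ty (5260 to 5326) 29 and 10. All 4 were higher in the knockout, and their sum of 108 against 44 gave a ratio of 2.54 (1.77 to 3.69), a grouping by position made with the values known. The ratio was 3.0 (1.42 to 6.90) for mt-Ty, 2.87 (1.30 to 7.0) for mt-Tn and 2.37 (1.31 to 4.47) for mt-Tc, and 1.94 (0.772 to 5.28) for mt-Ta. In the authors' deposited table mt-Ty, mt-Tc and mt-Tn are the mitochondrial genes marked significant. That mark comes from 1 column against 1, a comparison of these libraries and not of the genotypes. It does not follow the authors' adjusted p-value alone, since mt-Nd5, mt-Nd6 and mt-Rnr2 had far smaller values and are not marked. The share of all genes so marked was not computed, so the mark does not set this cluster above the other members.

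The cluster and mt-Te, the minus-strand tRNA with the most reads, are shown 5′ to 3′ with the anticodon in capitals, found as the middle of a 7-base loop closed by 5 paired bases. The sequences are from GENCODE M21 on GRCm38, minus strand of the mitochondrial genome.
mt-Ta: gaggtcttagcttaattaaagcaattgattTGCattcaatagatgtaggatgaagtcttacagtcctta
mt-Tn: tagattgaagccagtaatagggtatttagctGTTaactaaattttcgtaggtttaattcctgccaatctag
mt-Tc: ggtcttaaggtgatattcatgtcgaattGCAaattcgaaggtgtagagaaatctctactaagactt
mt-Ty: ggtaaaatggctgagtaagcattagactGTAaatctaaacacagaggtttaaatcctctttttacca
mt-Te: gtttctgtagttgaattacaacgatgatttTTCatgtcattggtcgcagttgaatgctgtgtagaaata

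The other minus-strand tRNAs lie apart from the cluster. mt-Te (14071 to 14139), for glutamate, had 289 counts against 180, a ratio of 1.66 (1.37 to 2.01). mt-Ts1 (6870 to 6938), for serine, had 203 against 152, a ratio of 1.38 (1.11 to 1.72), and overlaps the end of mt-Co1 by 3 bases. mt-Tq, for glutamine, had 18 against 17 and mt-Tp, for proline, 58 against 67, with ratios of 1.10 (0.533 to 2.26) and 0.896 (0.619 to 1.29). So 5 of the 8 minus-strand tRNAs had an interval above 1 and none had one below. Over all genes at 1 CPM these shares were 12.6% and 11.2%. Of the 5, mt-Tn reached 1 CPM in the knockout alone.

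No plus-strand tRNA had an interval clear of 1. mt-Tl1, for leucine, which lies between mt-Rnr2 and mt-Nd1, had 116 counts against 100, a ratio of 1.2 (0.911 to 1.58). mt-Tm, for methionine, had 9 against 7 and mt-Tl2, for leucine, 6 against 1, with ratios of 1.33 (0.441 to 4.2) and 6.21 (0.753 to 286). mt-Ti and mt-Ts2 each had 2 counts against 1, and mt-Tg had 1 against 3. For these last no ratio is given because both libraries held at most 3 counts, the limit that a count of 0 allows. They nevertheless enter the counts of members past 1.5-fold above, mt-Ti and mt-Ts2 as higher and mt-Tg as the 1 lower member.

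**Figure D4:**
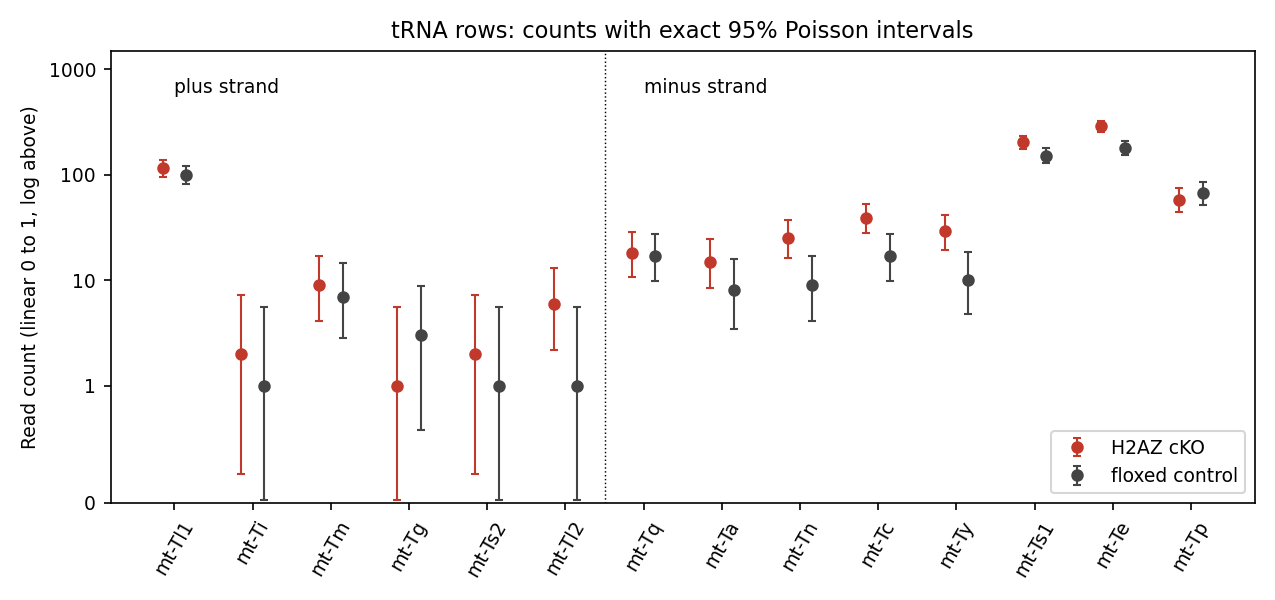
Read counts of the 14 tRNA genes in each library with exact 95% Poisson intervals, on an axis that is linear from 0 to 1 and logarithmic above; plus-strand genes are left of the dotted line. The cluster from mt-Ta to mt-Ty lies between 8 and 17 counts in the control and between 15 and 39 in the knockout.

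The make-up of the mitochondrial counts needs no scaling between the libraries. mt-Cytb took 26.2% of them in the control and 23.9% in the knockout, mt-Nd5 5.65% and 6.76%, and mt-Nd6 3.63% and 4.55%. The rRNAs took 1.70% and 2.11%. Of the 13 annotated mRNAs mt-Cytb, mt-Nd4 and mt-Co3 end in a lone T, a stop codon that the poly(A) tail completes, and the other 10 end in a full TAA or TAG. Whether the ratios differ between these endings was not tested.

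The nuclear genes that transcribe and maintain the mitochondrial genome did not stand higher as a list. Of 25 tested genes 10 were above 0 and 15 below on the log2 scale. Their median log2 ratio was -0.04, and the interval lay above 1 for 1 gene and below 1 for 3. Over all genes at 1 CPM 51% were above 0, 12.6% had an interval above 1 and 11.2% had one below. Polrmt, the mitochondrial RNA polymerase, had levels of 50.3 and 56.6 CPM and a ratio of 0.889 (0.780 to 1.01). Tfam, which packages the genome and activates its promoters, was at 0.966 (0.852 to 1.09), and Tfb2m, which opens the promoter with the polymerase, at 1.35 (0.975 to 1.87) on 90 and 69 counts. The helicase gene Twnk was at 0.892 (0.745 to 1.07) and the DNA polymerase gene Polg at 0.909 (0.80 to 1.03). Its accessory subunit Polg2 had 36 counts against 64, a ratio of 0.582 (0.376 to 0.889), while Dna2 was at 1.26 (1.06 to 1.5) and Lig3 at 0.809 (0.70 to 0.933).

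Genes that process and stabilise mitochondrial RNA lay close to the control. Of 33 tested genes 18 were above 0 and 15 below, and the median log2 ratio was 0.02. That median was -0.017, -0.00015 and -0.012 under scaling by total count, by DESeq2 size factors and by the nuclear total. Lrpprc and Slirp, partners that bind and protect mitochondrial mRNAs, were at 1.06 (0.944 to 1.2) and 1.05 (0.867 to 1.28), and the poly(A) polymerase gene Mtpap at 0.902 (0.773 to 1.05). Trmt10c, a subunit of the nuclease that cuts the 5′ ends of the tRNAs out of the precursors, had levels of 36.1 and 29.4 CPM and a ratio of 1.23 (1.04 to 1.45). The modification genes Nsun3 and Trmu were at 1.25 (0.965 to 1.63) and 0.815 (0.663 to 1.0), and Ptcd1 at 0.837 (0.696 to 1.01). Among 12 regulators of mitochondrial biogenesis the coactivator Ppargc1a had 92 counts against 64, a ratio of 1.49 (1.07 to 2.08), Ppargc1b 10 against 5, Mycn a ratio of 1.29 (1.19 to 1.40) and Myc 1.25 (1.07 to 1.46). The median log2 ratio of that list was 0.09, with 9 genes above 0 and 3 below. The interval lay above 1 for 4 of its genes and below 1 for 1. Over all genes at 1 CPM 51% were above 0, 12.6% had an interval above 1 and 11.2% one below. The list summed to 947 CPM in the knockout and 942 CPM in the control, a ratio of 1.005 (0.975 to 1.04). By summed level these regulators were thus not higher as a list.

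Most nuclear subunits of complexes I and IV and of ATP synthase had ratios above 1, while complexes II and III lay closer to the control. Over all genes at 1 CPM 51% were above 0 and 12.6% had an interval above 1, and at 100 CPM or more 61.4% and 32.4%. For complex I 34 of 36 tested subunits were above 0 and 22 had an interval above 1, with a median log2 ratio of 0.19 beside 0.38 for the 6 mitochondrial mRNAs. The 0.38 takes in mt-Nd3, at 0.71 on 116 and 70 counts, whose level is uncertain. By summed counts the ratio was 1.13 (1.11 to 1.15) for the nuclear subunits and 1.22 (1.21 to 1.23) for the mitochondrial mRNAs. Among the nuclear subunits Ndufb4 was at 1.40 (1.15 to 1.69), Ndufb8 at 1.32 (1.18 to 1.47), Ndufa6 at 1.31 (1.17 to 1.47) and Ndufa1 at 1.29 (1.07 to 1.56). The 12 subunits of complex IV were all above 0 with a median of 0.14, led by Cox5a at 1.25 (1.14 to 1.36), and 15 of 16 ATP synthase subunits with a median of 0.12, led by Atp5k at 1.31 (1.16 to 1.48). The 9 subunits of complex III had a median of 0.06, with 1 interval above 1. Complex II, which has no mitochondrial subunit, had a median of -0.01, with Sdhb at 1.14 (1.06 to 1.23), Sdha at 0.992, Sdhc at 0.994 and Sdhd at 0.981. Of 77 tested proteins of the mitochondrial ribosome, the partners of the rRNAs, 61 were above 0 and 18 had an interval above 1, where the genes at 1 CPM and at 100 CPM gave the shares above. Their median was 0.11, and Mrps24 and Mrpl54 were at 1.43 (1.25 to 1.65 and 1.23 to 1.67). Whether the mitochondrial and nuclear lists differ was not tested.

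**Figure D5:**
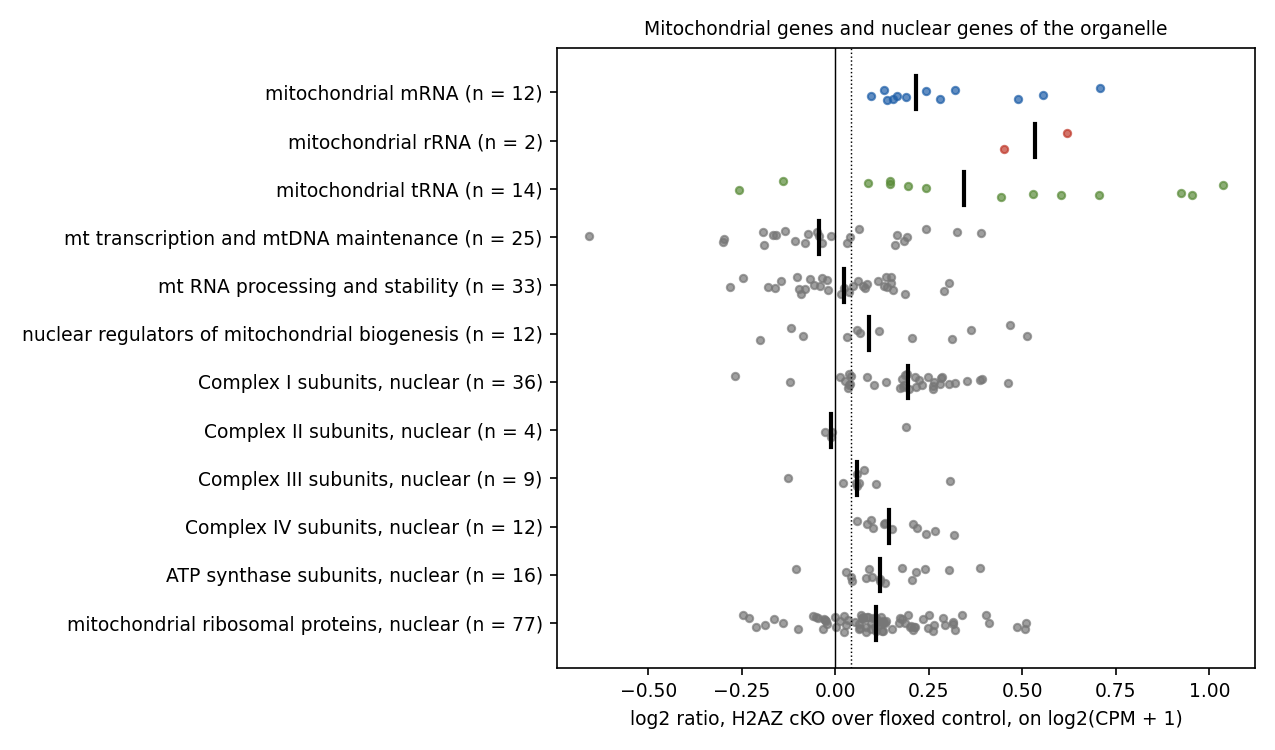
Log2 ratio on log2(CPM + 1) of each gene (points) and list median (black bar) for the mitochondrial mRNA, rRNA and tRNA genes and for nuclear gene lists of the organelle. The solid line is 0 and the dotted line 0.04, the median of genes at 100 CPM or more; the 3 mitochondrial medians (0.22, 0.53 and 0.34) lie to the right of all 9 nuclear medians.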

How the data were processed

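RNA-seq counts of 1 knockout and 1 control column were analysed. The tools listed in the submitters' processing notes are HTSeq 0.6.0, TopHat2 2.0.12 and Bowtie2 2.2.3, with build mm9 and no role for any. Positions of all 28 mitochondrial rows are identical in GENCODE M21 (GRCm38). The deposited counts are whole numbers per Ensembl gene. The deposited CPM values are, for counts above 0, these counts times a constant per column. The authors' fold, log2 fold, p-value and adjusted p-value columns compare 1 column with 1, by a test that no source used here names. The series text speaks of triplicates, and no source says whether a column pools them, so p-values of the authors measure these libraries only.

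R 4.3.3 ran edgeR 4.0.16, whose TMM factors were 0.986 and 1.01, and DESeq2 1.42.0 for alternative size factors. All else ran in Python 3.11.15 (scipy 1.17.1, numpy 2.4.6, matplotlib 3.10.9, pandas 2.3.3). Log2 ratios have a pseudocount of 1 CPM. Nuclear genes were described at 1 CPM or more in the higher library. Because the reads carry no molecular identifiers they may repeat a molecule, so intervals cover counting error only; a count of 0 allows up to 3 counts. The ratio and its interval were run on simulated counts with Poisson error alone, the error the interval assumes. That check of the code does not bear on variation between embryos or libraries. All members are named. In the nuclear lists up to 4 genes with the largest absolute log2 ratio were named, plus 9 regulators fixed by name. The members and lists were chosen with earlier results of these data known. Symbols matched for 19112 genes. Alternatives were other scalings, pseudocounts of 0.1 and 5 CPM, level floors, other folds and other denominators of the share.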

Additional observations from a re-analysis of the deposited data

How the results depend on the processing

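With 1 column per genotype no replicate could be left out. No paired analysis was possible because each genotype has a single column and no test was made. Scaling by total count, by DESeq2 size factors or by the nuclear total multiplied every ratio by 0.972, 0.984 or 0.976, and no member changed direction under these or under the pseudocounts. Respectively, the summed ratio of all members was 1.14, 1.15 and 1.14, of the mRNAs 1.13, 1.15 and 1.14, and of the plus-strand members 1.13, 1.14 and 1.13. That of the minus-strand members was 1.43 by total count. The mRNA share of protein-coding counts was 2.99% in the knockout. Members at least 1.5-fold higher, 11 with no floor, were 7 with a floor of 1 CPM, 7 on the log2(CPM + 1) scale (chosen after seeing the data) and 2 with a pseudocount of 5 CPM. There were 19 past 1.2-fold and 6 past 2-fold. The 1 lower member was lost (0) with that floor and with pseudocounts of 1 and 5 CPM. The median log2 ratio of genes for mitochondrial RNA processing turned to -0.017, -0.00015 and -0.012 under the 3 scalings, and the cause is the shift of all ratios by the scaling. With 100-base windows, also chosen after seeing the data, mt-Co1 shared 30.8% and mt-Nd4 60.8%. Depth limits the tRNAs and the 4 sparse mRNAs, most of which have under 100 counts.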
